A study of Rattus norvegicus with 12 samples.

Results

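The 40 genes described here encode matrix proteins other than collagens, together with the enzymes and inhibitors that remodel the matrix. They were chosen by gene symbol from a list of structural glycoproteins, elastic fibre proteins, proteoglycans, laminin chains, nidogens, proteases, protease inhibitors and crosslinking enzymes. All 40 were found, each under 1 gene identifier, among 25252 genes in the deposited table. The tissue was the dorsal root ganglion, which holds the cell bodies of sensory neurons, taken from 12 wild-type Sprague Dawley rats in 3 groups of 4. The first group, called CYM-5478 rats here, was given cisplatin and, daily from day -1 to day 20, CYM-5478, which activates S1P2, a receptor for the lipid mediator sphingosine 1-phosphate. For CYM-5478 a dose of 0.1 mg/kg stands in the sample labels and one of 1 mg/kg in the protocol, and the files do not settle which is right. Cisplatin rats had cisplatin, a platinum drug used against tumours, injected into the abdominal cavity at 3 mg/kg on day 0, day 7 and day 14, and CYM-5478 rats had the same. Vehicle rats were given saline with Tween 20 (0.1%) and DMSO (1%). No group was given CYM-5478 without cisplatin, and neither the age of the rats nor the ganglion level is stated in the labels.

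The extracellular matrix of a ganglion fills the space between nerve fibres and lines the cells. Basement membranes, sheets of laminin and type IV collagen joined by nidogens and perlecan, surround Schwann cells, satellite glia and blood vessels, and laminin chains combine as alpha, beta and gamma trimers. The interstitial matrix between them holds fibronectin, small leucine-rich proteoglycans that bind collagen fibrils, and elastic fibres, and is made largely by fibroblasts. Matrix metalloproteases and ADAMTS proteases cut these proteins, tissue inhibitors of metalloproteases (TIMPs) block the cutting, and lysyl oxidases crosslink collagen and elastin.

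Expression was measured by sequencing total RNA depleted of ribosomal RNA, and the deposited values are FPKM, fragments per kilobase of transcript scaled to the size of the library. Levels below are FPKM summed over the transcripts of a gene and scaled between libraries, and changes are differences of log2(FPKM + 0.5), a scale that understates the change of low genes. Per length of transcript the 40 genes spanned a wide range. Sparc, a secreted calcium-binding protein that regulates collagen assembly, had the highest mean over the 12 libraries, 1650 FPKM, and was number 32 among all genes. Dcn (decorin), which coats collagen fibrils, followed with 1270 FPKM, and Lama1, a laminin alpha chain, was lowest with 0.535 FPKM. There were 15 genes above 100 FPKM, 22 between 10 and 100, 2 between 2 and 10, and 1 below 2, and all 40 passed the minimum mean of 0.5 FPKM for testing. Summed, the 40 genes held 5810 ± 333 FPKM in CYM-5478 rats, 6930 ± 182 in cisplatin rats and 5870 ± 446 in vehicle rats (SD, n = 4 each).

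Cisplatin rats were set against vehicle rats to ask which matrix genes cisplatin changed, and 5 of the 40 rose. These were Vcan, Lamb2, Lama2, Mmp2 and Lamb1, with changes of 0.27 to 0.52 on the log2 scale, and 0 of the 40 fell (limma, adjusted p under 0.05 after Benjamini-Hochberg adjustment over all genes tested). Of all 16753 genes tested, 10.7% passed that threshold, 2.73% higher and 7.98% lower. At an unadjusted p under 0.05 there were 17 of the 40 higher and 1, Fbln2, lower, against 11.8% of all genes higher and 28.4% in either direction. The change was above 0 for 33 of the 40 genes, against 53.7% of all genes, and its median was 0.25 against 0.02 over all genes. For 10 of the 40 genes the lowest cisplatin library was above the highest vehicle library, and for 0 the reverse held, against 6.81% of all genes higher and 11.5% lower. In bulk tissue, fewer cells of a type and less RNA per cell cannot be told apart. Each limma p-value sets a difference of group means against the spread between rats, pooled over the 3 groups and drawn toward that of other genes.

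With CYM-5478 added to cisplatin, 4 of the genes were lower than in cisplatin rats. Nid1, Lama2, Vcan and Mmp2 fell, by 0.27 to 0.36 on the log2 scale, and 0 of the 40 rose (limma, adjusted p under 0.05). Over all genes 5.62% passed, 4.53% higher and 1.09% lower, with a smallest adjusted p of 0.0395. At an unadjusted p under 0.05 there were 18 of the 40 lower and 0 higher. Of all genes 24.6% passed in either direction, made up of 15% higher and the rest lower. The change was above 0 for 8 of the 40 genes, against 46.7% of all genes, with a median of -0.23 against -0.02 over all genes. Libraries of the CYM-5478 and cisplatin rats did not overlap for 15 genes, all lower with CYM-5478, against 5.68% of all genes lower and 10.4% higher. Lama2, Mmp2 and Vcan passed in both comparisons, and 9 genes had libraries that did not overlap in both. The 2 comparisons share the cisplatin libraries, and neither count was taken over all genes. Whether these counts are unusual therefore cannot be said.

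CYM-5478 rats were also set against vehicle rats. By limma 0 of the 40 genes and 0% of all genes passed the adjusted threshold (smallest adjusted p over all genes 0.631). At an unadjusted p under 0.05, 1 of the 40, Lama1, was lower. Of all genes 5.79% passed that in either direction, made up of 3.06% higher and the rest lower. The change was above 0 for 26 of the 40 genes, against 49.7% of all genes, and its median was 0.01. Libraries did not overlap for Eln, higher, and Lama1, lower, against 1.69% of all genes higher and 1.76% lower. A p that misses the threshold does not show that the levels were equal.

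**Figure D1:**
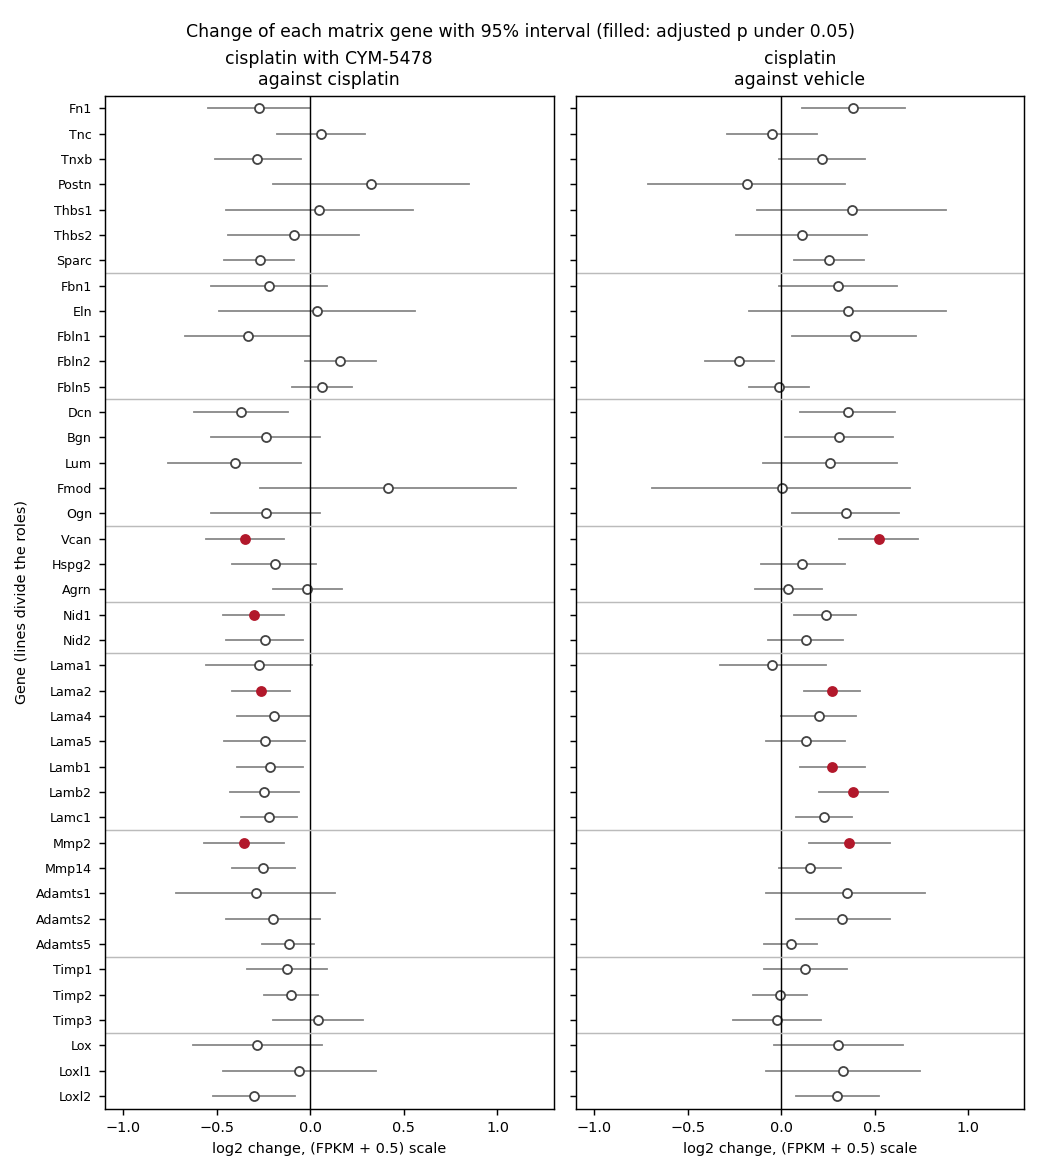
Log2 change of each of the 40 genes, on the log2(FPKM + 0.5) scale, with a 95% interval from the limma SE and 9 residual degrees of freedom, for CYM-5478 with cisplatin against cisplatin (left) and cisplatin against vehicle (right). Filled points passed an adjusted p of 0.05: 4 lower genes on the left and 5 higher genes on the right, and lines divide the genes by role.

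Other measures were compared between the same groups. The neuron marker list (8 of 8 found, none at 0) summed to 4110 to 5040 FPKM in CYM-5478 rats, 2040 to 3430 in cisplatin rats and 3980 to 5710 in vehicle rats. All 8 fell in cisplatin against vehicle, and 5 of 8 rose in CYM-5478 against cisplatin (limma). The fibroblast list (8 of 9 found, 7 scored, none at 0) summed to 2250 to 2470 FPKM in CYM-5478 rats, 2710 to 3420 in cisplatin rats and 1970 to 2500 in vehicle rats. It includes Col1a1, Col1a2 and Col3a1, which are among the collagens below, and Dpt and Mfap5, which are among the glycoproteins below. The list is thus in part a matrix measure and not one apart from the matrix. Its score, a library's log2 difference from the vehicle mean averaged over the genes, was 0.00 ± 0.04 in CYM-5478 rats, 0.24 ± 0.18 in cisplatin rats and 0.00 ± 0.19 in vehicle rats (exact permutation p = 0.0286 for CYM-5478 against cisplatin and 0.114 for cisplatin against vehicle, where 0.0286 is the smallest that 4 against 4 can give). Of the 7 fibroblast genes scored, 2 rose in cisplatin against vehicle and 1 fell in CYM-5478 against cisplatin (limma). The Schwann cell list (9 of 9 found, none at 0) summed to 18900 to 26200 FPKM in CYM-5478 rats, 24700 to 30800 in cisplatin rats and 19500 to 27500 in vehicle rats. Of these 9 genes, 0 passed in cisplatin against vehicle and 1 was lower in CYM-5478 against cisplatin (limma). The satellite glia score was -0.02 ± 0.09 in CYM-5478 rats, -0.16 ± 0.07 in cisplatin rats and 0.00 ± 0.03 in vehicle rats (exact permutation p = 0.0286 for cisplatin against vehicle and 0.0857 for CYM-5478 against cisplatin). Its genes did not move together, as 1 of 7 was higher and 2 were lower in cisplatin against vehicle (limma). In CYM-5478 against cisplatin 0 of these 7 passed. The endothelial list (8 of 8 found, none at 0) summed to 150 to 197 FPKM in CYM-5478 rats, 201 to 268 in cisplatin rats and 160 to 223 in vehicle rats, with 1 of 8 higher in cisplatin against vehicle and 1 of 8 lower in CYM-5478 against cisplatin (limma). The mural cell list (7 of 8 found, none at 0) summed to 147 to 173 FPKM in CYM-5478 rats, 182 to 250 in cisplatin rats and 163 to 196 in vehicle rats, with 1 of 7 higher in cisplatin against vehicle and 2 of 7 lower in CYM-5478 against cisplatin. For cisplatin against vehicle the exact permutation p of the score was 0.0857 for Schwann cells, 0.2 for endothelial cells and 0.171 for mural cells. The macrophage score was 0.36 ± 0.27 and the perineurial score 0.25 ± 0.17 in cisplatin rats (exact permutation p = 0.143 and 0.286 against vehicle). The part of these lists in the changes of the 40 genes was not tested. The sum of deposited FPKM was 606 ± 14 kFPKM in CYM-5478 rats, 657 ± 14.8 in cisplatin rats and 602 ± 7.08 in vehicle rats (SD, n = 4 each). Its exact permutation p was 0.0286 for cisplatin against vehicle and also for CYM-5478 against cisplatin. Markers of neurons and fibroblasts were present in every library (lowest Uchl1 572 and Pdgfra 50.1 FPKM). Libraries of cisplatin rats 2 and 3 had the highest skeletal muscle scores (2.03 and 1.09), and those of CYM-5478 rats 2 and 3 the most extreme neutrophil scores (1.88 and -1.62). Without cisplatin rats 2 and 3, 3 of the 40 genes were higher in cisplatin against vehicle and 1 was lower in CYM-5478 against cisplatin. Without CYM-5478 rats 2 and 3, 6 of the 40 were higher in cisplatin against vehicle, and 0 passed in CYM-5478 against cisplatin (5 at an unadjusted p under 0.05).

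**Figure D2:**
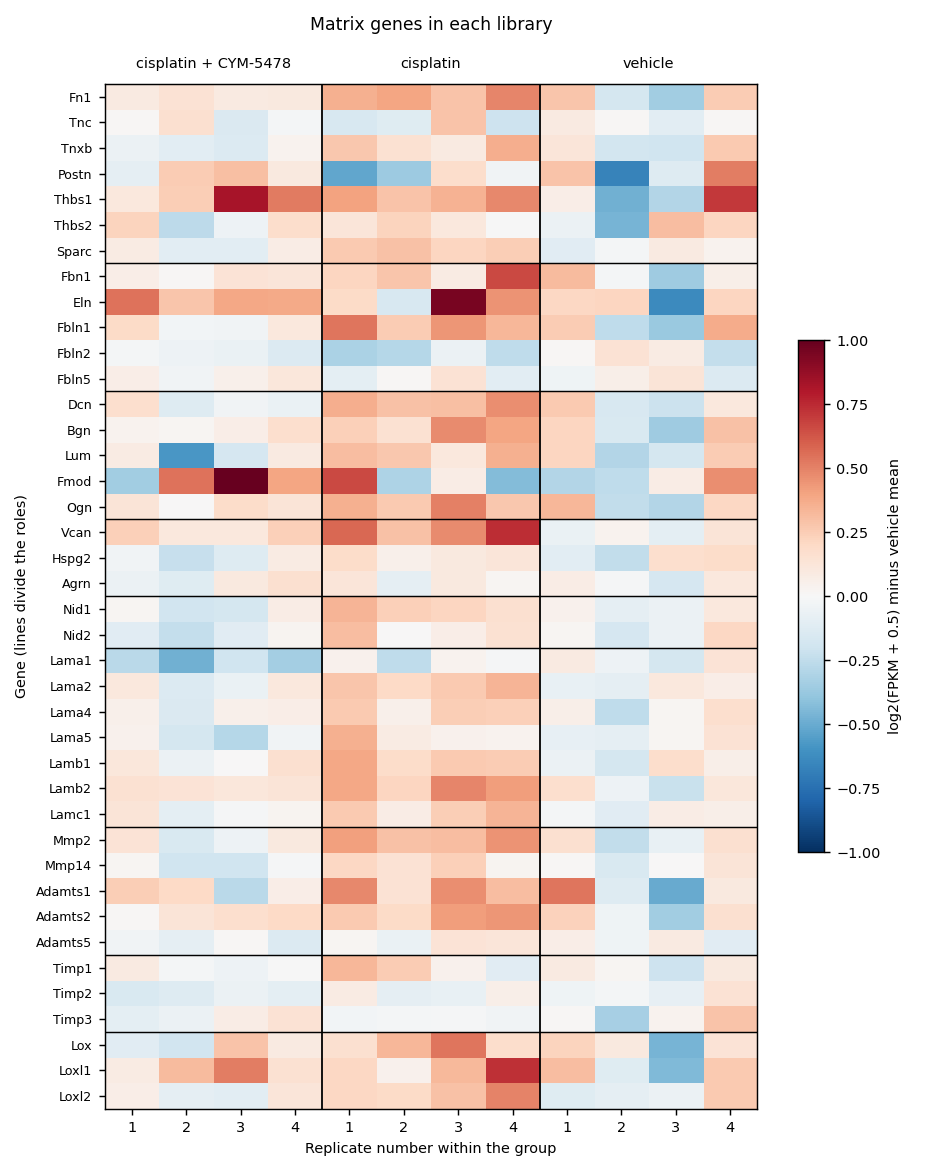
Each cell is a gene's log2(FPKM + 0.5) in 1 library minus its mean over the vehicle libraries, with CYM-5478, cisplatin and vehicle rats from left to right and the 40 genes ordered by role. Laminin and nidogen genes are mostly red in the 4 cisplatin columns, while Fmod varies within every group.

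Among the 7 structural glycoproteins of the interstitial matrix, 0 passed the test in cisplatin against vehicle (limma, 2 at an unadjusted p under 0.05) and 0 in CYM-5478 against cisplatin (3 at an unadjusted p under 0.05). Fn1 encodes fibronectin, which links collagens to cell-surface integrins. It had 137, 143, 137 and 138 FPKM in CYM-5478 rats, 165, 170, 157 and 181 in cisplatin rats, and 156, 114, 101 and 154 in vehicle rats. All 4 cisplatin libraries lay above every other library, and vehicle rats 2 and 3 were lowest. Its change was 0.38 (SE 0.12, limma adjusted p = 0.0632) for cisplatin against vehicle and -0.28 (SE 0.12, adjusted p = 0.187) for CYM-5478 against cisplatin. Sparc had 1640, 1440, 1440 and 1630 FPKM in CYM-5478 rats, 1860, 1900, 1800 and 1840 in cisplatin rats, and 1430, 1530, 1650 and 1590 in vehicle rats. Here too the cisplatin libraries stood above all others without overlap (0.26, SE 0.08, adjusted p = 0.0644 against vehicle, and -0.27, SE 0.08, adjusted p = 0.0699 for CYM-5478 against cisplatin). After quantile normalization the Sparc value against vehicle was -0.03 (adjusted p = 0.865).

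Tnxb (tenascin X), which spaces collagen fibrils, had 55.9 to 63.1 FPKM in CYM-5478 rats, 65.5 to 79.2 in cisplatin rats and 53.4 to 74.0 in vehicle rats. The CYM-5478 libraries were all below the cisplatin ones (-0.28, SE 0.10, limma adjusted p = 0.114), and the cisplatin and vehicle libraries overlapped. Thbs1, a thrombospondin that binds matrix and cell-surface receptors, averaged 75.4 ± 16.9 FPKM in CYM-5478 rats, 71.7 ± 4.06 in cisplatin rats and 58.0 ± 22.8 in vehicle rats. Thbs2, its close relative, averaged 26.7 ± 4.12 FPKM in CYM-5478 rats, 28.2 ± 1.89 in cisplatin rats and 26.6 ± 6.1 in vehicle rats (SD, n = 4 each, as for every ± below). Vehicle rats ranged from 39.3 to 90.1 FPKM for Thbs1, which took in all 4 cisplatin libraries. Tnc (tenascin C), a glycoprotein of remodelling tissue, was at 10.6 ± 0.973 FPKM in CYM-5478 rats, 10.2 ± 1.78 in cisplatin rats and 10.5 ± 0.607 in vehicle rats. Postn (periostin), made by activated fibroblasts, was at 6.49 ± 0.836 FPKM in CYM-5478 rats, 5.15 ± 1.24 in cisplatin rats and 6.11 ± 2.21 in vehicle rats. Neither Tnc nor Postn had a change past the threshold (adjusted p = 0.784 and 0.642 for cisplatin against vehicle), and their estimates in that comparison were -0.05 and -0.18.

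Of the 5 elastic fibre genes 0 passed in either comparison (limma, 3 and 1 at an unadjusted p under 0.05), and their estimates ran in both directions. Fbln1 encodes fibulin 1, a glycoprotein of elastic fibres and basement membranes. It had 53.3, 45.6, 45.4 and 50.2 FPKM in CYM-5478 rats, 67.7, 55.6, 63.6 and 58.7 in cisplatin rats, and 55.6, 39.0, 36.0 and 60.3 in vehicle rats. Its CYM-5478 and cisplatin libraries did not overlap, but 2 vehicle libraries reached the cisplatin range (0.39, SE 0.15, limma adjusted p = 0.104 against vehicle). Fbln2, a related fibulin, was the 1 gene of the 40 with an unadjusted p under 0.05 and a lower estimate in cisplatin. It had 89.2, 87.3, 86.2 and 82.1 FPKM in CYM-5478 rats, 72.5, 74.2, 86.9 and 75.6 in cisplatin rats, and 91.1, 100, 95.8 and 76.3 in vehicle rats (-0.23, SE 0.08, limma adjusted p = 0.0936 for cisplatin against vehicle). Groups overlapped, with cisplatin rat 3 highest and vehicle rat 4 lowest in its group. With values rescaled to TPM, where each library sums to the same total, Fbln2 was lower in cisplatin at an adjusted p of 0.0136 (-0.35). Tested singly, its more abundant transcript, ENSRNOT00000037256, had a change of -0.34 (SE 0.11, limma adjusted p = 0.0805) in cisplatin against vehicle. The estimate of ENSRNOT00000009696 ran the other way (0.21, SE 0.17, adjusted p = 0.461). In CYM-5478 against cisplatin the 2 values were 0.27 (adjusted p = 0.173) and -0.25 (adjusted p = 0.42).

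Fbln5, which helps assemble elastic fibres, was at 42.8 ± 1.87 FPKM in CYM-5478 rats, 41.1 ± 3.46 in cisplatin rats and 41.5 ± 3.35 in vehicle rats. The 95% interval of its change in cisplatin against vehicle ran from -0.17 to 0.15. Fbn1 (fibrillin 1), the scaffold of microfibrils, was at 106 ± 4.29 FPKM in CYM-5478 rats, 125 ± 22.5 in cisplatin rats and 102 ± 19.5 in vehicle rats. Eln (elastin), the core of the elastic fibre, had 31.4, 26.0, 28.1 and 28.0 FPKM in CYM-5478 rats, 24.5, 19.1, 41.9 and 29.4 in cisplatin rats, and 24.8, 24.9, 13.6 and 25.0 in vehicle rats. Every CYM-5478 library was above every vehicle library, by a change of 0.39 (SE 0.23, limma adjusted p = 0.921), and the cisplatin libraries overlapped those of both other groups.

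Of the 5 small leucine-rich proteoglycans, which bind collagen fibrils and set their diameter, 0 passed in either comparison (limma, 3 and 2 at an unadjusted p under 0.05). All 5 had a change above 0 in cisplatin against vehicle, with a median of 0.31. Dcn had 1300, 1060, 1130 and 1110 FPKM in CYM-5478 rats, 1490, 1420, 1430 and 1600 in cisplatin rats, and 1390, 1040, 1000 and 1250 in vehicle rats. The cisplatin libraries were above all 8 others, by 0.36 (SE 0.11, adjusted p = 0.0606) against vehicle and with -0.37 (SE 0.11, adjusted p = 0.0705) for CYM-5478 against cisplatin. Lum (lumican) had 292, 184, 245 and 293 FPKM in CYM-5478 rats, 342, 332, 296 and 352 in cisplatin rats, and 320, 225, 244 and 329 in vehicle rats. CYM-5478 and cisplatin libraries did not overlap (-0.40, SE 0.16, adjusted p = 0.143), whereas vehicle rats 1 and 4 reached into the cisplatin range. For Ogn (osteoglycin, also called mimecan) the CYM-5478 and cisplatin libraries did not overlap and vehicle rat 1 reached into the cisplatin range, at 103 ± 5.4 FPKM in CYM-5478 rats, 121 ± 9.82 in cisplatin rats and 96.9 ± 21.3 in vehicle rats.

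Bgn (biglycan), which also binds growth factors, was at 150 ± 6.96 FPKM in CYM-5478 rats, 177 ± 17.9 in cisplatin rats and 145 ± 29.7 in vehicle rats, with overlapping libraries. Fmod (fibromodulin), which shapes young collagen fibrils, had 6.19, 11.9, 17.4 and 10.7 FPKM in CYM-5478 rats, 13.0, 6.39, 8.47 and 5.83 in cisplatin rats, and 6.46, 6.67, 8.49 and 11.3 in vehicle rats. The libraries spread widely within every group, and its change was 0.00 (SE 0.30, adjusted p = 0.999) for cisplatin against vehicle.

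Of the 3 large proteoglycans 1, Vcan, passed in both comparisons. Vcan (versican), a chondroitin sulphate proteoglycan of loose connective tissue that binds hyaluronan, had 10.0, 9.1, 9.07 and 10.0 FPKM in CYM-5478 rats, 12.8, 10.4, 11.9 and 14.4 in cisplatin rats, and 8.03, 8.62, 7.85 and 9.23 in vehicle rats. Every cisplatin library was above every library of the other groups, and cisplatin rat 4 was highest. Vcan rose by 0.52 (SE 0.09, limma adjusted p = 0.0171) in cisplatin against vehicle, the largest change of the 40 genes in that comparison. It fell by 0.35 (SE 0.09, adjusted p = 0.0488) in CYM-5478 against cisplatin, and its change in CYM-5478 against vehicle was 0.17 (SE 0.09, adjusted p = 0.915). With TPM, Vcan was the single gene of the 40 past the threshold as higher in cisplatin, while 28 of the 40 had a change above 0. With 1 library left out the call against vehicle was lost without vehicle rat 2 or cisplatin rat 4 (limma adjusted p 0.0154 to 0.0612), and the call in CYM-5478 against cisplatin was kept in 1 of 12 cases, without cisplatin rat 2 (adjusted p 0.0381 to 0.145).

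Hspg2 (perlecan), the large heparan sulphate proteoglycan of basement membranes, was at 263 ± 24.4 FPKM in CYM-5478 rats, 300 ± 11.2 in cisplatin rats and 279 ± 40.8 in vehicle rats. Its libraries overlapped between groups, and its change in cisplatin against vehicle was 0.11 (SE 0.10, limma adjusted p = 0.49).

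Agrn (agrin), a heparan sulphate proteoglycan best known for clustering acetylcholine receptors at the nerve-muscle junction, had no change past the threshold as a gene. It had 18.6, 17.8, 20.8 and 21.7 FPKM in CYM-5478 rats, 21.1, 18.2, 20.8 and 19.6 in cisplatin rats, and 20.4, 19.2, 17.2 and 20.9 in vehicle rats. The groups overlapped, and the 95% interval of its change in cisplatin against vehicle ran from -0.14 to 0.22. Its 2 main transcripts were then tested singly. The more abundant transcript, ENSRNOT00000047854, averaged 16.3 ± 2.33 FPKM in CYM-5478 rats, 18.3 ± 1.79 in cisplatin rats and 15.9 ± 1.61 in vehicle rats, with changes of 0.19 (SE 0.11, limma adjusted p = 0.285) for cisplatin against vehicle and -0.17 (SE 0.11, adjusted p = 0.375) for CYM-5478 against cisplatin. The next, ENSRNOT00000046315, had 2.33, 4.06, 3.78 and 2.29 FPKM in CYM-5478 rats, 0.838, 1.35, 1.27 and 1.7 in cisplatin rats, and 2.17, 3.97, 2.49 and 4.06 in vehicle rats. All 4 cisplatin libraries were below all 8 others. Among 18809 single transcripts tested, 8.44% passed the threshold in cisplatin against vehicle (2.13% higher, 6.31% lower), and among 47 transcripts of the 40 genes 5 were higher and 1, this one, was lower (-1.02, SE 0.24, adjusted p = 0.0277). In CYM-5478 against cisplatin 3.59% of transcripts passed (2.97% higher, 0.622% lower), and of the 47 this one was higher (1.00, SE 0.24, adjusted p = 0.0469) and 2, of Vcan and Nid1, were lower. In CYM-5478 against vehicle 0 of the 47 passed by limma (3 at an unadjusted p under 0.05).

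The transcript held 16.1 ± 5.58% of Agrn FPKM in CYM-5478 rats, 6.55 ± 2.01% in cisplatin rats and 16.4 ± 4.66% in vehicle rats. Leaving out 1 library at a time gave changes of -1.16 to -0.89 for cisplatin against vehicle, and the call was kept in 8 of 12 cases (lost without vehicle rat 2 or 4 or cisplatin rat 1 or 4, adjusted p 0.0298 to 0.0908). For CYM-5478 against cisplatin the changes were 0.87 to 1.11, and the call was kept in 2 of 12 cases, without vehicle rat 2 or CYM-5478 rat 1 (adjusted p 0.0445 to 0.145). Both calls of ENSRNOT00000046315 were also lost in a fit of the 8 libraries compared (adjusted p = 0.0535 against vehicle and 0.0821 for CYM-5478 against cisplatin). How reads shared between transcripts were divided was decided by the authors' program, which is not given in the sources used here. Of the other members with several transcripts, Mmp14 had 1 transcript, ENSRNOT00000042938, that was higher in cisplatin against vehicle (0.51, SE 0.14, limma adjusted p = 0.0474, kept in 2 of 12 cases with 1 library left out, without vehicle rat 4 or CYM-5478 rat 1, and lost with TPM at 0.0885 and in the fit of 8 libraries at 0.0685), while its more abundant transcript was not past the threshold (0.11, SE 0.08, adjusted p = 0.393). For Vcan the most abundant transcript, ENSRNOT00000045532, rose by 0.45 (SE 0.09, adjusted p = 0.0233) in cisplatin against vehicle, a call lost without vehicle rat 2 or cisplatin rat 4, and fell by 0.44 (SE 0.09, adjusted p = 0.0455) in CYM-5478 against cisplatin, a call kept in 4 of 12 cases with 1 library left out (without vehicle rat 2, cisplatin rat 2 or 3 or CYM-5478 rat 1) and lost in the fit of 8 libraries (adjusted p = 0.0821). Its transcript ENSRNOT00000063821 was not lower with CYM-5478, at 2.06 ± 0.842 FPKM in CYM-5478 rats, 2.05 ± 0.949 in cisplatin rats and 1.03 ± 0.182 in vehicle rats. The changes were 0.64 for cisplatin against vehicle, 0.05 for CYM-5478 against cisplatin and 0.69 for CYM-5478 against vehicle (SE 0.31, limma adjusted p = 0.208, 0.949 and 0.833).

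**Figure D3:**
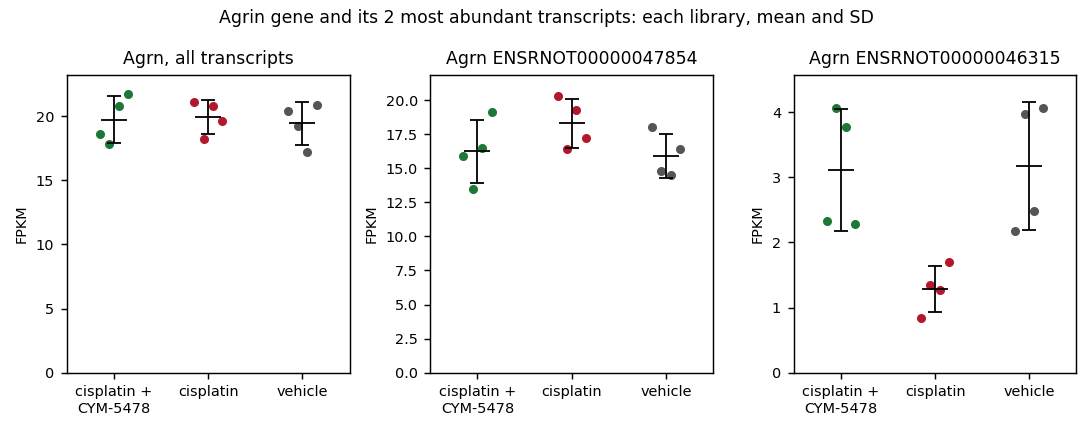
FPKM of the agrin gene (left) and its 2 most abundant transcripts, by library (points), with mean and SD, for CYM-5478, cisplatin and vehicle rats from left to right. The groups overlap for the gene, and transcript ENSRNOT00000046315 (right) lies between 0.838 and 1.7 FPKM in cisplatin rats, below all libraries of the other groups.

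The nidogens are glycoproteins that bridge laminin and type IV collagen. Nid1 had 212, 183, 185 and 220 FPKM in CYM-5478 rats, 264, 246, 242 and 234 in cisplatin rats, and 215, 196, 201 and 225 in vehicle rats. The cisplatin libraries were above all others, and the CYM-5478 and vehicle libraries overlapped. Nid1 fell by 0.30 (SE 0.07, limma adjusted p = 0.0406) in CYM-5478 against cisplatin, and its change in cisplatin against vehicle, 0.24 (SE 0.07, adjusted p = 0.0562), did not pass. With 1 library left out the call was kept in 3 of 12 cases, without vehicle rat 2 or 4 or CYM-5478 rat 1 (adjusted p 0.0391 to 0.129). Nid2 was at 46.9 ± 3.48 FPKM in CYM-5478 rats, 55.8 ± 5.2 in cisplatin rats and 50.8 ± 5.77 in vehicle rats. Its change was -0.25 (SE 0.09, adjusted p = 0.115) for CYM-5478 against cisplatin and 0.13 (SE 0.09, adjusted p = 0.347) for cisplatin against vehicle, with overlapping libraries.

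Laminin chains held 3 of the 5 calls against vehicle. Of 7 chains, 3 rose in cisplatin against vehicle, with 5 at an unadjusted p under 0.05, and 1 fell in CYM-5478 against cisplatin, with 6 at an unadjusted p under 0.05. Medians were 0.23 and -0.24 on the log2 scale. Lama2, the alpha chain of the laminin that coats Schwann cells and muscle fibres, had 118, 100, 105 and 118 FPKM in CYM-5478 rats, 133, 126, 132 and 139 in cisplatin rats, and 104, 103, 118 and 115 in vehicle rats. No cisplatin library reached down to either other group. Lama2 rose by 0.27 (SE 0.07, limma adjusted p = 0.0308) in cisplatin against vehicle and fell by 0.27 (SE 0.07, adjusted p = 0.0449) in CYM-5478 against cisplatin. Its change in CYM-5478 against vehicle was 0.00 (95% interval -0.15 to 0.16). The call against vehicle was kept in 7 of 12 cases with 1 library left out (lost without vehicle rat 1 or 2 or cisplatin rat 1, 3 or 4, adjusted p 0.0316 to 0.0944), and that against cisplatin in 3 of 12 (kept without vehicle rat 2, cisplatin rat 2 or CYM-5478 rat 1, adjusted p 0.0404 to 0.136).

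Lamb1 and Lamb2 are the beta chains, and each pairs with alpha and gamma chains in a trimer. Lamb2 had 108, 107, 105 and 106 FPKM in CYM-5478 rats, 127, 113, 136 and 130 in cisplatin rats, and 109, 93.5, 82.9 and 105 in vehicle rats. Lamb1 had 115, 102, 107 and 119 FPKM in CYM-5478 rats, 139, 121, 128 and 127 in cisplatin rats, and 102, 94.4, 120 and 111 in vehicle rats. For both genes the cisplatin libraries lay above all others, for Lamb1 by a narrow margin over vehicle rat 3. Lamb2 rose by 0.38 (SE 0.08, limma adjusted p = 0.0208) and Lamb1 by 0.27 (SE 0.08, adjusted p = 0.0462) in cisplatin against vehicle. In CYM-5478 against cisplatin the values were -0.25 (SE 0.08, adjusted p = 0.0911) for Lamb2 and -0.22 (SE 0.08, adjusted p = 0.114) for Lamb1. With 1 library left out the Lamb2 call was lost without vehicle rat 2 or cisplatin rat 4 (adjusted p 0.0205 to 0.0702), and the Lamb1 call was kept without vehicle rat 3, cisplatin rat 2 or CYM-5478 rat 2 and lost in the other 9 cases (adjusted p 0.0401 to 0.13). The ratio of Lamb1 to Lamb2 was 1.04 ± 0.0757 in CYM-5478 rats, 1.02 ± 0.0748 in cisplatin rats and 1.11 ± 0.225 in vehicle rats, described without a test.

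Lamc1, the gamma chain shared by most laminins, had 142, 121, 129 and 132 FPKM in CYM-5478 rats, 156, 137, 154 and 164 in cisplatin rats, and 128, 120, 137 and 135 in vehicle rats. Cisplatin libraries were above the vehicle ones, with cisplatin rat 2 and vehicle rat 3 next to each other (0.23, SE 0.07, limma adjusted p = 0.0518), and cisplatin rat 2 lay below CYM-5478 rat 1. Lama4, an alpha chain of vessel and nerve basement membranes, was at 76.3 ± 5.22 FPKM in CYM-5478 rats, 87.5 ± 5.99 in cisplatin rats and 76.3 ± 9.14 in vehicle rats. Lama5, a broadly used alpha chain, was at 9.29 ± 0.985 FPKM in CYM-5478 rats, 11.1 ± 1.26 in cisplatin rats and 10.1 ± 0.817 in vehicle rats. Neither passed the threshold in either comparison. Lama1 had 0.427, 0.301, 0.474 and 0.383 FPKM in CYM-5478 rats, 0.655, 0.438, 0.644 and 0.608 in cisplatin rats, and 0.694, 0.582, 0.489 and 0.728 in vehicle rats. Each CYM-5478 library was below each vehicle library (-0.32, SE 0.13, adjusted p = 0.84), at a level near the minimum for testing.

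Shares were taken of the summed FPKM of Lama1, Lama2, Lama4 and Lama5, without Lama3, which is not among the 40 genes. The Lama2 share was 56.2 ± 1.12% in CYM-5478 rats, 57.2 ± 1.2% in cisplatin rats and 55.9 ± 2.27% in vehicle rats. The Lama4 share was 38.9 ± 1.4% in CYM-5478 rats, 37.7 ± 1.02% in cisplatin rats and 38.6 ± 2.31% in vehicle rats. Lama5 held 4.73 ± 0.351% in CYM-5478 rats, 4.79 ± 0.531% in cisplatin rats and 5.12 ± 0.214% in vehicle rats. The ranges of these 3 shares overlapped between all groups. Over the 11 members of the basement membrane (laminins, nidogens, perlecan and agrin), 3 rose in cisplatin against vehicle and 2 fell in CYM-5478 against cisplatin, and over the other 29 the counts were 2 and 2. Of all genes 2.73% rose in the first comparison and 1.09% fell in the second. Median changes were 0.20 for the 11 and 0.30 for the 29 in the first, and -0.24 and -0.22 in the second. No difference between the 11 and the 29 was tested.

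Promoter sequences of the genes past the threshold are shown because these genes moved in the same direction. Of the 6 such genes, 4 matched a table of RefSeq promoters on build GRCr8, and Lamb2 and Mmp2 are named only. Each sequence is the 250 bases before the annotated start, read 5′ to 3′ on the gene's strand, for Vcan (chr2:22595956-22596205, minus strand), Nid1 (chr17:93069036-93069285, plus strand), Lama2 (chr1:19491896-19492145, plus strand) and Lamb1 (chr6:53562846-53563095, plus strand). Capitals mark the GC box GGGCGG and the CCAAT box, with matches on either strand.
Vcan: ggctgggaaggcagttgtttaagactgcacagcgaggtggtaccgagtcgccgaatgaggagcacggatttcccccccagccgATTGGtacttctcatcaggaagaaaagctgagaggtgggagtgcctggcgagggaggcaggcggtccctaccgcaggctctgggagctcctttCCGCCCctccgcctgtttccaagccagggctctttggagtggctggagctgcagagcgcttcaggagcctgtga
Nid1: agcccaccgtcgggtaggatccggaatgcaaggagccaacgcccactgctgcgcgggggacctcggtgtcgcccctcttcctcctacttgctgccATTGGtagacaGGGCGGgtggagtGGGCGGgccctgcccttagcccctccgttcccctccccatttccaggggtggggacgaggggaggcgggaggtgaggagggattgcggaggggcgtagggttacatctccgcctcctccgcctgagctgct
Lama2: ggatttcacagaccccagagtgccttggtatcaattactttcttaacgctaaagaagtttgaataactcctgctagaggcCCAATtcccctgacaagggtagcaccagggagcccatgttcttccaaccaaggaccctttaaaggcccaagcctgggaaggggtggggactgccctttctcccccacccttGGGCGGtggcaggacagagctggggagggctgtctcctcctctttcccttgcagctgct
Lamb1: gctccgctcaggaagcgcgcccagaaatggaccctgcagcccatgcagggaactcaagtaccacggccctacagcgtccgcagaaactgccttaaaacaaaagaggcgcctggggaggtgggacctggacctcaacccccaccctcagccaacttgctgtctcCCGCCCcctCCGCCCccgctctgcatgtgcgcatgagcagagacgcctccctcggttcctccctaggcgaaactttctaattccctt
All 4 windows held a GC box, at 1 match for Vcan and Lama2 and 2 for Nid1 and Lamb1. A CCAAT box lay in the windows of Vcan, Nid1 and Lama2. The TATA box TATAAA and the AP-1 site TGANTCA had no match in the 4 windows. Among 33469 rat promoters of this length, searched on both strands, 30.5% held GGGCGG, 34.0% CCAAT, 12.9% TATAAA and 6.34% TGANTCA. Of the 26 genes of the 40 with a promoter in the table, 65.4% (17) held GGGCGG, 30.8% (8) CCAAT, 19.2% (5) TATAAA and 0% (0) TGANTCA. The GC content was 61.6% for Vcan, 68.0% for Nid1, 55.6% for Lama2 and 62.0% for Lamb1, above the median of 51.2% over all promoters. A match is a stretch of letters and was not tested for binding.

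Of the 5 proteases, Mmp2 passed in both comparisons. Mmp2 encodes a gelatinase that cuts denatured collagen and basement membrane. It had 88.9, 72.3, 77.7 and 86.2 FPKM in CYM-5478 rats, 107, 99.0, 100 and 110 in cisplatin rats, and 90.3, 68.0, 76.5 and 89.9 in vehicle rats. The cisplatin libraries were above all 8 others. Mmp2 rose by 0.36 (SE 0.10, limma adjusted p = 0.0343) in cisplatin against vehicle and fell by 0.36 (SE 0.10, adjusted p = 0.0497) in CYM-5478 against cisplatin. The call against vehicle was lost without vehicle rat 2 or 3 or cisplatin rat 1 or 4 (adjusted p 0.033 to 0.0922 with 1 library left out), and that against cisplatin was kept without vehicle rat 2 or CYM-5478 rat 1 and lost in the other 10 cases (adjusted p 0.0365 to 0.142). Mmp14, a membrane-bound protease that activates the Mmp2 proenzyme, had 98.3, 84.4, 84.2 and 96.1 FPKM in CYM-5478 rats, 112, 107, 114 and 98.8 in cisplatin rats, and 97.6, 87.3, 97.3 and 106 in vehicle rats. The CYM-5478 libraries were below the cisplatin ones by a narrow margin (-0.25, SE 0.08, adjusted p = 0.0674), and cisplatin and vehicle libraries overlapped (0.16, SE 0.08, adjusted p = 0.196).

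Adamts1 and Adamts5 cut large proteoglycans such as versican, and Adamts2 trims procollagen. Adamts1 had 32.8, 31.8, 22.9 and 28.9 FPKM in CYM-5478 rats, 38.8, 30.6, 38.3 and 34.4 in cisplatin rats, and 40.3, 25.3, 19.3 and 29.6 in vehicle rats. Adamts2 was at 31.8 ± 1.79 FPKM in CYM-5478 rats, 36.7 ± 3.12 in cisplatin rats and 29.4 ± 5.12 in vehicle rats (0.33, SE 0.11, limma adjusted p = 0.0787 for cisplatin against vehicle). Adamts5 was at 34.0 ± 1.53 FPKM in CYM-5478 rats, 37.0 ± 2.48 in cisplatin rats and 35.6 ± 2.31 in vehicle rats. Libraries of all 3 genes overlapped between groups, and vehicle rats varied most for Adamts1.

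The 3 inhibitors had no call in either comparison (limma, 0 at an unadjusted p under 0.05), and their median changes were -0.01 in cisplatin against vehicle and -0.10 in CYM-5478 against cisplatin. Timp2, which both inhibits Mmp2 and helps Mmp14 activate it, had 338, 344, 360 and 352 FPKM in CYM-5478 rats, 398, 353, 357 and 392 in cisplatin rats, and 365, 370, 355 and 416 in vehicle rats. Groups overlapped, and the 95% interval of its change in cisplatin against vehicle was -0.15 to 0.14. Timp3, which is bound to the matrix, was at 152 ± 12.2 FPKM in CYM-5478 rats, 148 ± 1.51 in cisplatin rats and 152 ± 26.1 in vehicle rats (95% interval -0.26 to 0.21). Timp1, which is soluble, was at 66.0 ± 2.74 FPKM in CYM-5478 rats, 72.5 ± 10.1 in cisplatin rats and 66.0 ± 6.25 in vehicle rats (95% interval -0.09 to 0.35). The difference between these changes and that of Mmp2 was not tested.

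The ratio of summed Timp1, Timp2 and Timp3 to summed Mmp2 and Mmp14 within a library was chosen after the values were seen and is a description. It was 2.92, 3.53, 3.6 and 3.2 in CYM-5478 rats, 2.87, 2.81, 2.68 and 2.87 in cisplatin rats, and 3.12, 3.58, 3.26 and 3.42 in vehicle rats. The 4 cisplatin libraries had the lowest ratios, with a mean of 3.31 ± 0.311 in CYM-5478 rats, 2.81 ± 0.0907 in cisplatin rats and 3.34 ± 0.201 in vehicle rats.

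**Figure D4:**
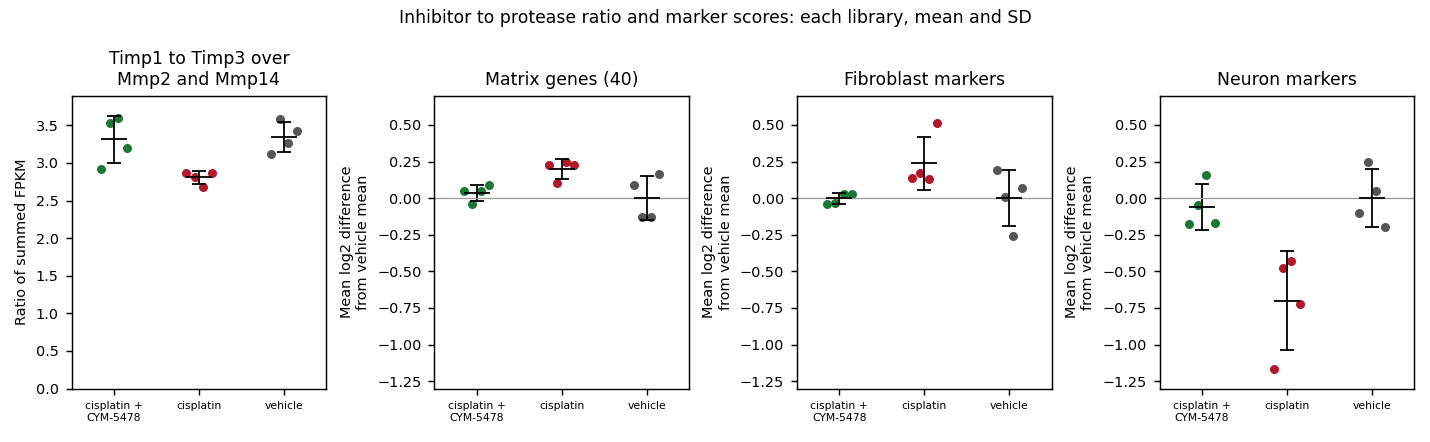
From left to right, the ratio of TIMP to metalloprotease FPKM, the score of the 40 genes (log2 difference from the vehicle mean, averaged over genes), and the same for fibroblast and neuron markers, by library with mean and SD. In each panel CYM-5478, cisplatin and vehicle rats stand from left to right; the ratio is 2.81 ± 0.0907 in cisplatin rats against 3.34 ± 0.201 in vehicle rats.

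The 3 lysyl oxidases had estimates of 0.30 to 0.33 in cisplatin against vehicle, and 0 passed in either comparison (limma, 1 at an unadjusted p under 0.05 in each, Loxl2). Loxl2, which crosslinks type IV collagen, had 14.7, 13.2, 13.0 and 15.3 FPKM in CYM-5478 rats, 16.3, 16.1, 17.3 and 20.0 in cisplatin rats, and 12.9, 13.2, 13.5 and 16.9 in vehicle rats. CYM-5478 and cisplatin libraries did not overlap (-0.30, SE 0.10, adjusted p = 0.0861), and vehicle rat 4 reached the cisplatin range (0.30, SE 0.10, adjusted p = 0.0703). Lox, which crosslinks fibrillar collagen and elastin, was at 16.6 ± 2.61 FPKM in CYM-5478 rats, 20.3 ± 2.55 in cisplatin rats and 16.6 ± 3.3 in vehicle rats. Loxl1, which acts on elastin, was at 30.2 ± 4.19 FPKM in CYM-5478 rats, 31.8 ± 6.94 in cisplatin rats and 25.4 ± 6.02 in vehicle rats.

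**Figure D5:**
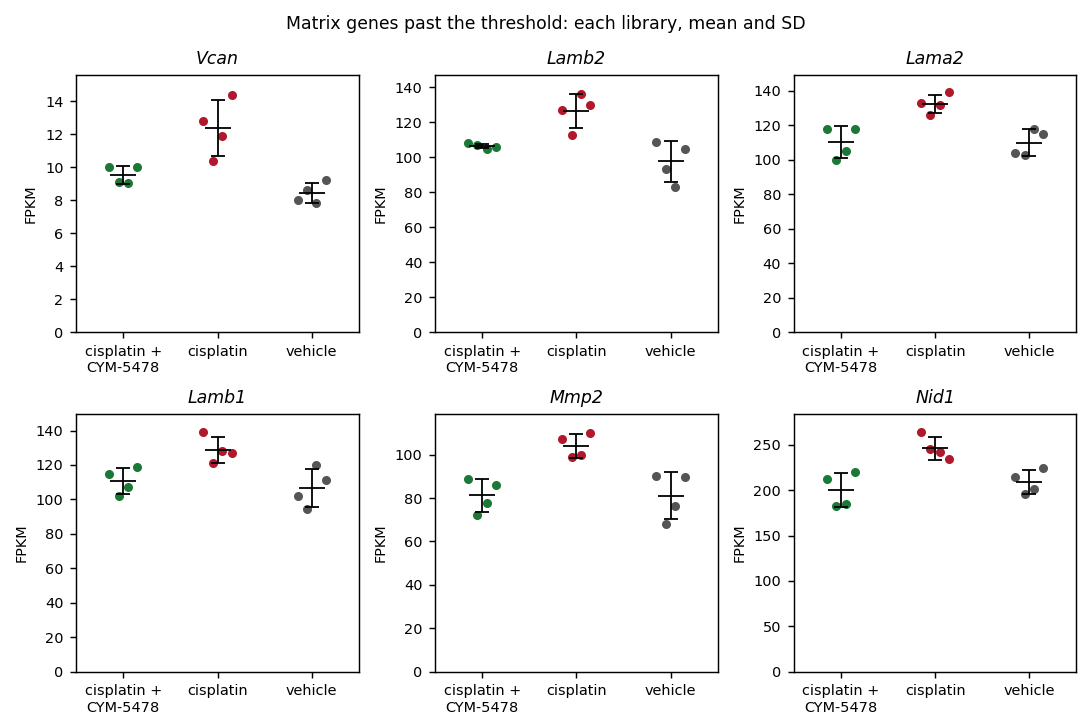
FPKM of the 6 genes past the threshold in either comparison, by library (points), with mean and SD (bars), for CYM-5478, cisplatin and vehicle rats from left to right. In every panel all 4 cisplatin points lie above the other 8, as for Vcan with 10.4 to 14.4 FPKM in cisplatin rats, 9.07 to 10.0 in CYM-5478 rats and 7.85 to 9.23 in vehicle rats.

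The median coefficient of variation over the 40 genes was 7.94% in CYM-5478 rats, 8.24% in cisplatin rats and 14.0% in vehicle rats, and a score of the 40 genes, made like that of the fibroblast list, was 0.05, -0.04, 0.05 and 0.09 in the 4 CYM-5478 libraries, 0.23, 0.10, 0.24 and 0.22 in the cisplatin libraries, and 0.09, -0.13, -0.13 and 0.17 in the vehicle libraries. Vehicle rat 4 lay above cisplatin rat 2 in this score. By limma 0 of the 40 genes passed in cisplatin against vehicle without vehicle rat 2 (12 at an unadjusted p under 0.05) or without cisplatin rat 4 (17), and over all genes 3 and 0 passed then. With TPM the median change over all genes was -0.09 rather than 0.02, and the 40 genes lay 0.22 above it, against 0.23 with scaled FPKM. The split over all genes was then 116 higher and 3158 lower, against 457 and 1337 with scaled FPKM, and 1 of the 40 genes, Vcan, was higher and 1, Fbln2, lower. The fit of the 8 libraries compared kept Vcan and Lama2 of the 5 calls against vehicle. For CYM-5478 against cisplatin TPM gave 2497 genes higher and 48 lower, against 759 and 182, and 0 of the 40 passed by limma (5 at an unadjusted p under 0.05).

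Related genes give the surroundings of these results, and the background shares are those given above. Of 20 collagens, 7 rose and 0 fell in cisplatin against vehicle, with a median of 0.31, and 3 fell and 0 rose in CYM-5478 against cisplatin, with a median of -0.24. Col4a1, a partner of laminin in basement membranes, averaged 148 ± 7.79 FPKM in CYM-5478 rats and 178 ± 8.18 in cisplatin rats, against 135 ± 12.8 in vehicle rats, and passed in both comparisons (0.40 and -0.26). Col5a2, a chain that limits fibril diameter, did so too (0.42 and -0.27). Of the 40 genes and of the collagens, larger shares thus passed in these directions than of all genes. Both lists were chosen with earlier results of these data known, so the shares do not test either list. No difference between the 2 lists was tested.

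Of 37 tested glycoproteins and proteoglycans outside the 40, 3 rose and 2 fell in cisplatin against vehicle. These are 8.11% and 5.41%, against 2.73% of all genes higher and 7.98% lower. Prelp, which ties basement membranes to connective tissue, rose by 0.49 (SE 0.11, limma adjusted p = 0.0229), and Ntn4, a netrin that binds laminin, by 0.23 (SE 0.06, adjusted p = 0.0399). Bcan (brevican) and Tnr (tenascin R), matrix proteins of nervous tissue, went the other way. Bcan was at 9.15 ± 0.933 FPKM in CYM-5478 rats, 5.48 ± 2.41 in cisplatin rats and 9.39 ± 1.59 in vehicle rats (-0.79, SE 0.21, adjusted p = 0.0383 for cisplatin against vehicle). Tnr was at 3.36 ± 0.738 FPKM in CYM-5478 rats, 2.19 ± 0.41 in cisplatin rats and 3.29 ± 0.249 in vehicle rats (-0.51, SE 0.15, adjusted p = 0.0462). In CYM-5478 against cisplatin 0 of the 37 passed by limma (8 at an unadjusted p under 0.05), with 0.76 (adjusted p = 0.057) for Bcan and 0.52 (adjusted p = 0.0582) for Tnr.

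Of 38 other proteases, inhibitors and collagen-processing enzymes, 4 rose and 0 fell in cisplatin against vehicle. Reck, a membrane-anchored inhibitor of metalloproteases, was at 49.2 ± 5.29 FPKM in CYM-5478 rats, 59.0 ± 0.981 in cisplatin rats and 48.5 ± 2.49 in vehicle rats, and passed in both comparisons (0.28 and -0.27, limma adjusted p = 0.0282 and 0.0467). Serpine2, an inhibitor of thrombin and plasminogen activators, rose by 0.35, Serpinh1, a collagen chaperone, by 0.40, and Adam10, a protease that sheds membrane proteins, by 0.23 (adjusted p = 0.0377, 0.0461 and 0.0462). Of the 38, 2 fell in CYM-5478 against cisplatin, Reck and Adamts12, a secreted metalloprotease (-0.54, SE 0.12, adjusted p = 0.0395).

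Of 28 matrix receptors, 0 rose in cisplatin against vehicle (limma, 2 higher at an unadjusted p under 0.05), and Itga3, the alpha chain of a laminin-binding integrin, and Itgb6, the beta chain of an integrin that activates TGF-beta, fell by 0.39 and by 0.58 (adjusted p = 0.0297 and 0.0335). The share of receptors that fell, 7.14%, was near that of all genes, 7.98%. In CYM-5478 against cisplatin 1 of 28 fell, Itgb5, a chain of a vitronectin receptor (-0.22, adjusted p = 0.0412). Of 27 genes of the TGF-beta pathway, which induces many matrix genes, 3 rose in cisplatin against vehicle. Bambi, a decoy receptor, rose by 0.42, Tgfbr1, a receptor kinase listed under 2 gene identifiers of which 1 was used, by 0.26, and Ccn1, a secreted matricellular protein, by 0.71 (limma adjusted p = 0.0208, 0.0344 and 0.0377). Bambi and Tgfbr1 were the 2 of 27 that fell in CYM-5478 against cisplatin, by 0.36 and by 0.27 (adjusted p = 0.0424 and 0.0446). In CYM-5478 against vehicle 0 genes passed in any of these 5 lists by limma, with 2 of 20 collagens, 0 of 37 glycoproteins and proteoglycans, 2 of 38 enzymes and inhibitors, 3 of 28 receptors and 1 of 27 TGF-beta genes at an unadjusted p under 0.05.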

How the data were processed

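RNA of dorsal root ganglia from 12 rats was extracted with an RNeasy Micro kit, depleted of ribosomal RNA and made into strand-specific NEBNext Ultra libraries, per the labels' protocols. The authors deposited 1 table of FPKM for 30275 transcripts of 25252 genes, with no counts, so the depth behind each value is unknown and intervals for counting error could not be made. STAR 2.7.8a, Bowtie2 2.0.6, bcl2fastq 2.20, FastQC and DESeq2, with the build Rnor_6.0, stand in the submitters' processing notes without their roles, and the program that made the FPKM is not given in the sources used here. Transcripts may be missing from the table as used here.

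FPKM were summed per gene (32 of the 40 genes have 1 transcript and 8 have several, 52 in all), and libraries were scaled by median ratios over genes with a mean of at least 1 FPKM (factors 0.9983 to 1.012). Genes with a mean of at least 0.5 FPKM (16753) were tested as log2(FPKM + 0.5) with limma 3.58.1 in R 4.3.3 (variance trend, 12 libraries in 1 fit, 9 residual degrees of freedom), and p-values were adjusted by Benjamini-Hochberg over all genes tested, with a threshold of 0.05. Single transcripts went through the same steps. Marker scores and sums of FPKM were compared by two-sided exact permutation tests with scipy 1.17.1, tables were handled with pandas 2.3.3 and plots drawn with matplotlib 3.10.9. The code was tested on simulated data.

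Groups and replicate numbers came from the labels, whose descriptions and titles number the rats differently. Same-numbered libraries did not deviate together (correlations -0.244 to 0.154), so no block was used. With groups this small the check cannot exclude a pairing. Markers were looked up by symbol (81 of 84 found), as were related genes (156 of 158, 4 of them by an older name). All 40 genes could be named, and of each related list up to 4 genes of smallest p past the threshold, or 2 where none passed. The 40 genes and the lists were chosen with earlier results of these data known. Alternatives were other pseudocounts (0.1 and 1), filters (none and 2 FPKM) and scalings (none, TPM, quantile), single transcripts, fits of 8 libraries, array weights, robust variances, replicate blocks and leaving out libraries. Promoters came from RefSeq tables on GRCr8, and no other coordinates are printed.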

Additional observations from a re-analysis of the deposited data

Results flagged for a closer look

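Of 120 groups of 4 libraries looked at (40 genes in 3 groups), 7 held a library whose gap to its nearest neighbour was above 0.829 of the group's range, Dixon's critical value, where chance gives about 1 in 20. Fn1 (fibronectin) was at 143 FPKM in CYM-5478 rat 2, against 137 to 138 in the other CYM-5478 rats. Tnc (tenascin C) was at 12.9 FPKM in cisplatin rat 3, against 9.07 to 9.65 in the other cisplatin rats. Eln (elastin) was at 13.6 FPKM in vehicle rat 3, against 24.8 to 25.0 in the other vehicle rats. The laminin chain Lama4 had such a library in both cisplatin-treated groups, with 68.5 FPKM in CYM-5478 rat 2, against 78.6 to 79.4 in the others, and 78.5 FPKM in cisplatin rat 2, against 89.7 to 91.3 in the others. Lama5 was at 13.0 FPKM in cisplatin rat 1, against 10.3 to 10.7 in the other cisplatin rats. Loxl2, a lysyl oxidase, was at 16.9 FPKM in vehicle rat 4, against 12.9 to 13.5 in the other vehicle rats.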

How the results depend on the processing

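Over 129 changes (40 genes and 3 single transcripts in 3 comparisons), 3279 values were recomputed, of which 3082 kept their direction and side of the threshold (a sign change within 1 SE of 0 of an uncalled change counted as kept), 155 lost a call, 35 gained a call and 7 changed sign. Most of the 129 changes had no call to lose, and all 155 losses fell on changes called in the main fit. The 3082 kept values therefore do not show that the calls were stable. How often each call was kept with 1 library left out is given with its gene. In cisplatin against vehicle (5 of the 40 genes) the count was 9 with a filter of 2 FPKM, 2 with TPM, 2 in a fit of 8 libraries and 3 without cisplatin rats 2 and 3. With 1 library left out it was 0 to 9, and the count over all genes 0 to 1846, against 1794. That count was 3274 with TPM and 961 in the fit of 8 libraries. In CYM-5478 against cisplatin (4 of the 40 genes) the count was 1 with quantile normalization and 1 without cisplatin rats 2 and 3. It was 0 by limma with no filter (19 at an unadjusted p under 0.05), with TPM (5), with array weights (18), in a fit of 8 libraries (25) and without CYM-5478 rats 2 and 3 (5). With 1 library left out it was 0 to 3, and 0 without vehicle rat 1 or 3, cisplatin rat 1, 3 or 4, or CYM-5478 rat 2, 3 or 4. Over all genes that comparison gave 2 calls with no filter, 2545 with TPM, 452 with array weights, 0 in the fit of 8 libraries (4002 unadjusted), 0 without CYM-5478 rats 2 and 3 (2068 unadjusted) and 0 to 1088 with 1 library left out, against 941. In CYM-5478 against vehicle 1 gene passed in the fit of 8 libraries, 1 without CYM-5478 rats 2 and 3 and 0 to 2 with 1 library left out.

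Whether the replicate numbers pair the rats is not known, as the check of correlations cannot exclude it. A replicate block by the description numbers gave 11 of the 40 genes in cisplatin against vehicle and 11 in CYM-5478 against cisplatin. A replicate block by the title numbers, in which vehicle rat 2 shares its number with no other rat, gave 0 of the 40 in both (11 and 22 unadjusted) and 0 genes overall (2535 and 3600 unadjusted). The changes that turned sign were those of Sparc (-0.034 with quantile normalization) and Hspg2 (-0.007 with TPM) in cisplatin against vehicle, Timp2 (0.004 with TPM) in CYM-5478 against cisplatin, and, in CYM-5478 against vehicle, Lama5 (0.001) and Mmp14 (0.003) without CYM-5478 rats 2 and 3, Adamts2 (-0.024) and the Mmp14 transcript ENSRNOT00000042938 (-0.025) with the title block. The title block also ended the calls of the Agrn, Vcan and Mmp14 transcripts. The cause was not tested. Leaving out pairs of rats and the alternatives for single transcripts were chosen after the data were seen. Depth is unknown, so it cannot be said how far it limits low genes such as Lama1.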
